A study of Homo sapiens with 12 samples.

Results

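The 5' untranslated region (5' UTR) is the stretch of a messenger RNA that lies ahead of the start codon. The 6 lists of N4-acetylcytidine (ac4C) sites held 6650 sites whose annotation column reads 5' UTR, out of 100763 sites in all. They were 1088, 1041 and 919 sites in wild-type (WT) lists 1, 2 and 3, and 985, 1294 and 1323 in NAT10 knockout (KO) lists 1, 2 and 3. Merged where they overlapped by at least 1 base, they made 2448 regions, and 2013 of the 10252 genes with a site anywhere (19.6%) had a 5' UTR site in at least 1 list.

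The cells were HK-2, an established human cell line from renal tubular epithelium, and the series title places the work in renal fibrosis. One group is labelled as wild-type control and the other as NAT10 knockout in the sample labels, whereas the series text speaks of a knockdown. KO is used here as the sample labels name it, and no further treatment, clone or allele is named in the labels. In both groups RNA was fragmented, fragments were pulled down with an anti-ac4C antibody (IP), and the IP and the starting RNA (input) were sequenced; the 12 libraries make 3 pairs per genotype and each pair gave 1 list. The labels do not say that the replicates came from separate cultures, so each p-value covers the spread of these samples alone, and that spread may be technical. The lists hold no read counts or library totals, so the depth behind a site is unknown. A missing site may therefore reflect less ac4C, less of the transcript or fewer reads, which cannot be told apart.

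ac4C is a cytidine acetylated on its base nitrogen. NAT10 is the acetyltransferase that deposits it on ribosomal RNA, transfer RNA (with the adaptor THUMPD1) and messenger RNA. The 5' UTR is where the small ribosomal subunit is recruited at the cap and scans towards the start codon, so its structure and any upstream reading frames bear on how often the protein is made. Earlier work on ac4C in messenger RNA has linked the mark in coding sequence with efficient decoding and the mark near the start site with changes in initiation.

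No sequence could be read at the sites themselves, since the build of the files' coordinates is not stated and no matching genome was used. The positions do not match GRCh38.p14. The first ZNF592 site opens at 85291818 on chromosome 15 in the files, while the leader of the gene lies at 84748592 in GRCh38.p14. The first transcribed bases of genes with 5' UTR sites were taken instead from RefSeq (GRCh38.p14), and they are shown so that a reader can see what leaders of these genes look like. The pattern searched was CNNCNNCNNCNN on the transcribed strand, 4 triplets in a row that each open with C, a pattern that has been described for ac4C on messenger RNA. In the windows below capitals mark the longest such run within the first 50 bases. The genes are the highest-ranked named genes of each class that held a run, namely PI4KB, ZNF592 and GOLGA5 with 5' UTR sites in all WT lists only, IL11, NKAPD1 and SPART in all KO lists only, and SEC31A and RNF216 in all 6 lists.
PI4KB: CCCCGCCCCCTTttctatttctgaacaggc
ZNF592: gtggCTCCCGCAGCCGgcgctggggacgcg
GOLGA5: gcttccCTTCCACGTCTCCCGgaagcggta
IL11: aCTGCCGCGGCCCtgctgctcagggcacat
NKAPD1: tcccaaaCCACTTCTTCCCCCCtacccccc
SPART: accagtacCAGCCCCCACCTtccgtctgtg
SEC31A: atttgaCCGCTCCTCCCTCCGCGTtggagg
RNF216: aggagtgCAGCGGCTGCCACGGagctcgca
These windows lie, in the order shown, at chr1:151327686-151327715 (minus strand), chr15:84748592-84748621 (plus), chr14:92794305-92794334 (plus), chr19:55370434-55370463 (minus), chr11:112074306-112074335 (plus), chr13:36370151-36370180 (minus), chr4:82900538-82900567 (minus) and chr7:5781620-5781649 (minus) in GRCh38.p14. A match describes these letters only and does not place a site in the window.

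The first 50 transcribed bases were described by the same run and by their GC content. A promoter entry was matched for 1665 of the 2013 genes with a 5' UTR site (82.7%), and 34.6% of those held the run of 4 triplets. The share was 35.6% among genes with sites in all WT and no KO list, 32.9% among those with sites in all KO and no WT list, 37.4% among those in all 6 lists, and 35.2% among all genes with a site anywhere. Across all 27305 genes of the RefSeq table the share was 26.0%. The median GC content ran the same way, at 66% in both genotype-limited classes, 70% in the genes of all 6 lists, 68% in all genes with a site and 60% in the whole table. A terminal oligopyrimidine opening, the start of leaders under mTOR control (here C followed by 4 bases that are each C or T), was found at the first base in 17 of 292 matched WT-only genes (5.82%) and in 9 of 365 matched KO-only genes (2.47%). The share was 3.21% in the genes of all 6 lists, 5.22% in all genes with a site and 4.04% in the whole table. These are descriptions without a test.

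The annotation was checked against the order of sites along each gene. Where a gene had both a 5' UTR site and a 3' UTR site in the same list, the 5' UTR site lay upstream on the gene's strand in 99.2% to 100% of pairs. It lay upstream of stop codon sites in 98.0% to 99.1% of pairs and of coding sequence sites in 93.7% to 95.4%. Against start codon sites the share was lower, at 82.1% to 85.4%. The label thus matched the order along the gene for most sites, least often beside start codon sites.

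Many 5' UTR sites belong to transcript isoforms outside the RefSeq messenger RNA set. Only 59.4% to 60.6% of the 5' UTR sites per list were annotated on a RefSeq messenger RNA, 33.0% to 34.4% on an Ensembl transcript and 5.09% to 6.96% on a UCSC transcript. Coding sequence sites carried a RefSeq transcript in 96.7% to 97.3%, start codon sites in 79.4% to 82.3%, and all sites in 88.3% to 89.5%. ANKLE2, which encodes a protein of the nuclear envelope, shows how this looks in 1 gene. Summed over the 6 lists it had the most 5' UTR sites of any gene, 19. There were 3, 3 and 2 in WT lists 1 to 3 and 3, 4 and 4 in KO lists 1 to 3. All of them were annotated on Ensembl or UCSC isoforms.

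The number of 5' UTR sites per list was 1016 ± 87.2 (SD, n = 3) in WT and 1201 ± 187 (n = 3) in KO, and the groups overlapped because KO list 1 (985) lay among the WT lists. The difference of 185 sites was not past the spread between lists (two-sided exact permutation test, p = 0.3, adjusted p = 0.3 over 4 comparisons). Without KO list 1, the shortest list of all, it came to 292.5 sites with an exact permutation p of 0.1, the smallest possible. Without KO list 3 it was 123.5 sites. As a share of each list, 5' UTR sites made up 6.20%, 6.09% and 6.01% in WT and 7.13%, 7.24% and 6.91% in KO. The 2 groups did not overlap, and the means differed by 0.995 percentage points (6.10% ± 0.0967 against 7.09% ± 0.166, n = 3 each, exact permutation p = 0.1, the smallest that 3 lists against 3 allow, adjusted p = 0.2). The share of start codon sites was likewise higher in every KO list than in every WT list. They numbered 2364, 2337 and 2116 of 17541, 17107 and 15289 sites in WT. In KO they numbered 2067, 2605 and 2730 of 13818, 17872 and 19136 sites.

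Genes with a 5' UTR site numbered 982, 944 and 848 in WT lists 1 to 3 and 898, 1145 and 1173 in KO lists 1 to 3. The means of 925 ± 69.1 and 1072 ± 151 (n = 3 each) differed by less than the spread allows to call (exact permutation p = 0.3, adjusted p = 0.3). That difference of 147 genes was 234 without KO list 1 and 96.8 without KO list 3. Between 88.8% and 92.1% of these genes had a single 5' UTR site in a list, and no gene had more than 5. The sites were short: their median length was 157, 157 and 162 bases in WT and 179, 168 and 174 bases in KO. Again the groups did not overlap, with 159 ± 2.89 against 174 ± 5.51 bases (exact permutation p = 0.1, the smallest possible, adjusted p = 0.2). Longer sites in KO were not particular to the 5' UTR. In every other transcript part, too, each KO median was above each WT median. Start codon medians were 218, 219 and 218 bases in WT and 230, 228 and 225 in KO. Coding sequence medians were 111, 111 and 112 bases against 125, 121 and 121.

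**Figure D1:**
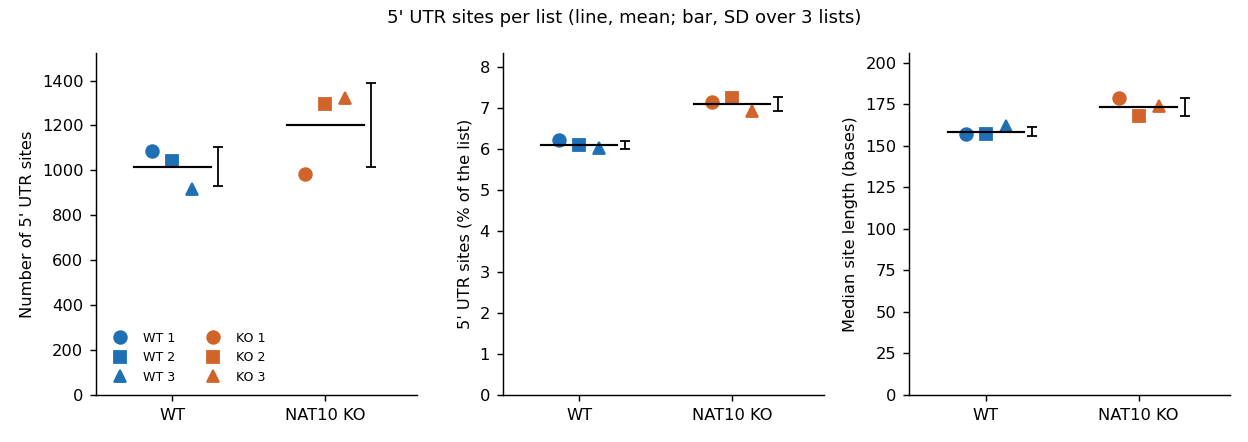
Number of 5' UTR sites, their share of all sites in the list (percent) and their median length (bases) for the 3 WT and 3 NAT10 KO lists; symbols are lists, lines are means and bars are the SD over 3 lists. The share and the median length do not overlap between genotypes, while KO list 1, with 985 sites, lies among the WT lists in number. Median lengths of the other transcript parts do not overlap either, nor does the share of start codon sites (not shown in this figure).

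Within each list the 5' UTR sites were set against sites of other transcript parts by their fold enrichment of IP over input, which is the authors' value for each site. The median fold of 5' UTR sites was 9.63, 9.53 and 10.7 in WT and 8.07, 7.70 and 8.21 in KO. Coding sequence sites had medians of 7.17, 7.31 and 7.94 in WT and 7.65, 6.79 and 6.95 in KO. The 5' UTR median was the higher in 6 of 6 lists, by 1.67 ± 0.933 fold units on average (n = 6; two-sided exact sign-flip permutation test, p = 0.031, the smallest that 6 lists allow, adjusted p = 0.0417 over 4 comparisons). The gap was 2.46, 2.22 and 2.73 fold units in WT and 0.425, 0.905 and 1.26 in KO, and these did not overlap (means 2.47 ± 0.255 and 0.863 ± 0.419, exact permutation p = 0.1).

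Start codon sites came close to 5' UTR sites in fold. The 5' UTR median was 0.03 fold units higher, equal and 0.405 higher in WT lists 1 to 3, while the differences in the KO lists were -0.455, -0.555 and -0.30. The mean gap of -0.146 ± 0.358 (n = 6) was not past the spread between lists (exact sign-flip permutation p = 0.375, adjusted p = 0.375). The 5' UTR and start codon gaps did not overlap between genotypes either, at 0.145 ± 0.226 in WT and -0.437 ± 0.128 in KO (n = 3 each, exact permutation p = 0.1).

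Ranked by fold within their own list, 5' UTR sites had a median percentile of 61.4, 60.4 and 61.9 in WT and of 51.6, 54.7 and 56.7 in KO. Start codon sites were lower in KO as well, without overlap. Their median percentiles were 61.0, 60.4 and 59.9 in WT and 54.5, 58.3 and 58.4 in KO. Of the WT 5' UTR sites, 14.2%, 14.6% and 14.9% stood in the top 10% of their list, against 10.7%, 10.7% and 10.8% in KO. The strongest reached folds of 3142, 2481 and 2959 in WT and 4273, 4385 and 4394 in KO. Folds of at least 100 were held by 43, 46 and 49 sites in WT and by 45, 39 and 33 in KO.

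In length, 5' UTR sites lay between coding sequence and start codon sites. They were longer than coding sequence sites by 46, 46 and 50 bases in WT and 54, 47 and 53 in KO, a mean of 49.3 bases (exact sign-flip permutation p = 0.031, adjusted p = 0.0417, same sign in 6 of 6 lists). They were shorter than start codon sites in 6 of 6 lists, with differences of -61, -62 and -56 bases in WT and -51, -60 and -51 in KO (mean -56.8, adjusted p = 0.0417 by the same exact permutation test). These 3 calls past 0.05 rest on all 6 lists: with any 1 list left out the smallest p is 0.0625 and the adjusted p was 0.0833. Among sites of at least 4-fold the adjusted p was 0.0833 for fold and 0.0625 for both lengths.

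**Figure D2:**
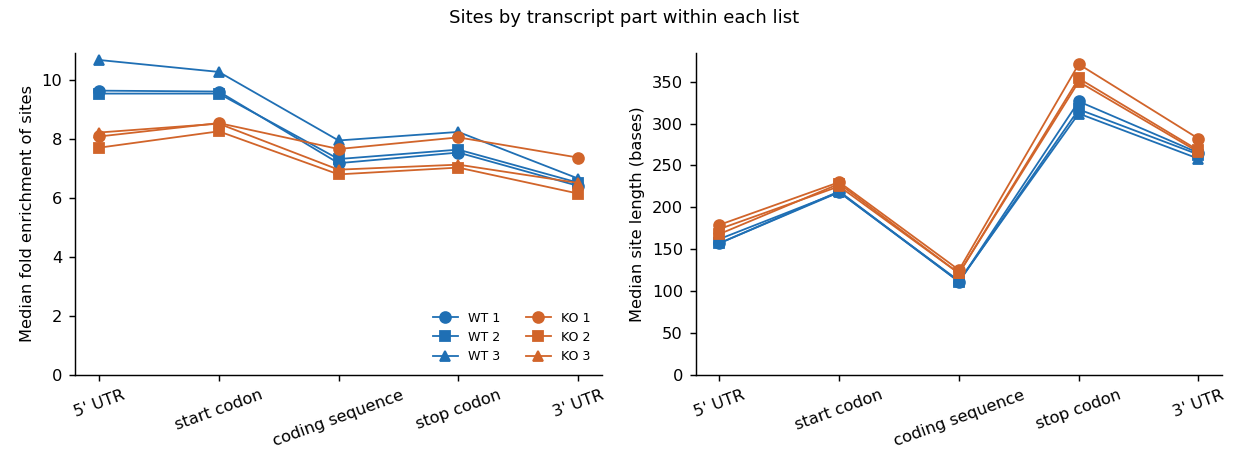
Median fold enrichment (left) and median site length in bases (right) of the sites in each of 5 transcript parts, 1 line per list, blue for WT and orange for NAT10 KO. 5' UTR and start codon sites have higher median folds than coding sequence, stop codon and 3' UTR sites in each of the 6 lists, and the 5' UTR medians of the WT lists (9.53 to 10.7) stand above those of the KO lists (7.70 to 8.21). Start codon medians of the WT lists (9.53 to 10.3) stand above those of the KO lists (8.25 to 8.53) too.

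The authors' score and false discovery rate differed between the lists and stand beside every comparison of genotypes here. The score, capped at 3100, reached that ceiling in 7.44%, 7.59% and 7.51% of WT 5' UTR sites and in 14.2%, 9.35% and 7.11% of KO 5' UTR sites. The authors' false discovery rate was over 50% in 91.9%, 91.4% and 90.6% of WT 5' UTR sites and in 70.4%, 72.3% and 44.3% of KO 5' UTR sites. Its lowest value among 5' UTR sites was 11.3%. The part of these differences in the results was not tested.

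Genes with a 5' UTR site often had sites elsewhere in the same list. In the WT lists 32.7%, 31.9% and 30.5% of them also had a start codon site, and in the KO lists 24.9%, 30.6% and 32.1%. A coding sequence site was present in 41.0% to 49.4% of them, a stop codon site in 16.6% to 26.1% and a 3' UTR site in 9.35% to 15.3%. The 5' UTR was the sole location in 252, 261 and 249 genes of the WT lists and in 342, 348 and 330 genes of the KO lists. That is 25.7%, 27.6% and 29.4% of 5' UTR genes in WT and 38.1%, 30.4% and 28.1% in KO, so the shares overlap. Where a 5' UTR site and a start codon site lay in 1 gene, the nearest pair was separated by a median of 4545 to 6302 bases of genome, introns included, and by under 1000 bases in 14.0% to 17.4% of cases.

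Comparison of the coordinates answered which 5' UTR sites the genotypes share. The Jaccard index of 2 lists, shared regions as a fraction of the regions found in at least one of them, averaged 0.669 (0.587 to 0.730) for lists of the same genotype, and 0.153 (0.141 to 0.162) across genotypes. The difference of 0.516 had an exact permutation p of 0.1, the smallest that the 10 splits of 6 lists into 3 and 3 allow. Start codon regions had a mean of 0.228 between genotypes, coding sequence regions 0.143 and 3' UTR regions 0.0753. Of the regions shared by 2 lists of 1 genotype, 69.1% to 80.4% had the same start and end to the base, against 16.4% to 20.7% of those shared across genotypes.

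Of the 2448 regions, 451 (18.4%) were in all WT lists and no KO list, where 21.6% of the regions of all 5 transcript parts were. A further 539 (22.0%) were in all KO lists and no WT list, where 20.6% of all regions were. All 6 lists held 176 (7.19%, against 7.39% of all regions). All 3 shares lie near those of sites in general. Put another way, 751 regions were in all WT lists and 60.1% of them were missing from KO; 802 were in all KO lists and 67.2% of them were missing from WT. The corresponding shares were 49.1% and 55.9% for start codon regions and 65.2% and 67.6% for coding sequence regions.

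**Figure D3:**
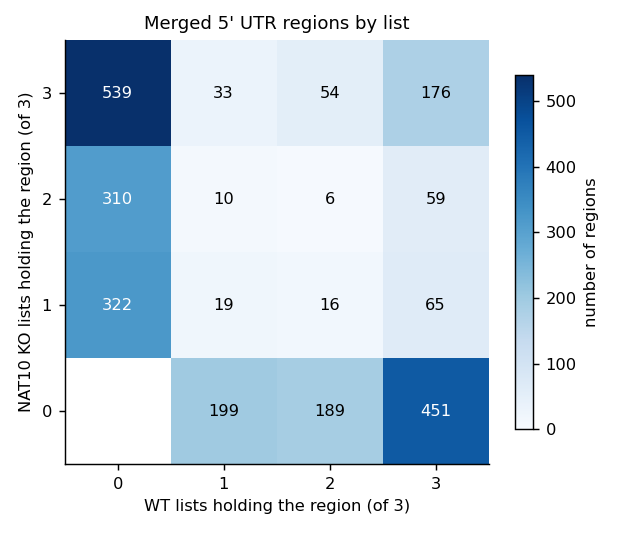
Number of merged 5' UTR regions by how many of the 3 WT lists (horizontal) and how many of the 3 NAT10 KO lists (vertical) hold them. The 539 regions in all KO lists alone and the 451 in all WT lists alone stand in 2 corners, with 176 in all 6 lists and 6 in 2 WT and 2 KO lists.

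By gene, 358 of the 2013 genes (17.8%) had a 5' UTR site in every WT list but in no KO list, beside 18.4% of all pairs of a gene and a transcript part. In all KO and no WT list there were 433 (21.5%, beside 18.8%), and in all 6 lists 223 (11.1%, beside 17.4%). Within genotypes the gene lists had a mean Jaccard index of 0.704, and between genotypes of 0.216 (difference 0.488, exact permutation p = 0.1). Counting sites anywhere in the gene, 11.8% of the 10252 genes were in all WT lists only, 15.0% in all KO lists only and 38.9% in all 6 lists.

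Most genes whose 5' UTR site was absent from the lists of the other genotype had a site elsewhere there. Of the 451 WT-only regions, the KO lists held an overlapping site of another transcript part for 10, another 5' UTR site of the gene for 80 (17.7%), a site elsewhere in the gene for 252 (55.9%) and no site of the gene for 109 (24.2%). Of the 539 KO-only regions, the WT lists held these for 2, 91 (16.9%), 283 (52.5%) and 163 (30.2%). By gene, 252 of the 358 WT-only genes (70.4%) had some site in a KO list, and 128 had a coding sequence site in all 3 KO lists. Of the 433 KO-only genes, 269 (62.1%) had some site in a WT list, and 141 had a coding sequence site in all 3.

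Regions of the 3 classes differed in their make-up. RefSeq messenger RNAs carried 54.0% to 54.2% of the sites in WT-only regions and 55.1% to 55.3% of those in KO-only regions, but 72.5% to 73.7% of the sites in the regions of all 6 lists. The sites of all 6 lists were also longer, with medians of 198.5 to 200 bases in WT and 206 to 211 in KO. WT-only sites had medians of 152 to 156.5 bases and KO-only sites of 167 to 171. Folds of at least 100 were held by 26 to 29 sites of the WT-only regions per WT list (5.75% to 6.43%). In the KO-only regions they were held by 29 to 33 sites per KO list (5.38% to 6.12%). In the regions of all 6 lists the share was 4.52% to 5.68% in the WT lists and 1.13% to 2.84% in the KO lists. Sites outside these classes had the lowest median fold in every list.

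Among WT-only genes PI4KB ranked first, a phosphatidylinositol 4-kinase of the Golgi. Its site opened at chromosome 1 position 151299747 in all 3 lists (the files' coordinates; build not stated) and had folds of 2220, 2426 and 2391. It was 111 bases long in WT lists 2 and 3 and 445 bases in list 1. No KO list had a 5' UTR site in PI4KB, though 2, 3 and 3 sites elsewhere in the gene were found there.

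ZNF592, a zinc finger gene, had 3 separate 5' UTR sites in each WT list. The strongest, on chromosome 15 from 85291818 (or 85291820) to 85291895, had folds of 3080, 1987 and 2502. A second, from 85321414 to 85321543, had folds of 1174, 840 and 1347. The third, from 85307938 to 85308046, was weaker, with folds of 14.9, 8.03 and 12.1, so the signal of this gene was not even along its leader. The KO lists had 1, 4 and 4 sites elsewhere in ZNF592 and none in its 5' UTR.

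Several of the other WT-only genes act on the actin cytoskeleton or on adhesion. WASF1, a subunit of the WAVE complex that drives branching of actin, had folds of 2975, 1932 and 2722. CYRIB, which binds RAC1 and restrains that complex, had folds of 3081, 1980 and 2959, and no site of any kind in the KO lists. ELMO2, which helps activate RAC1, had 1076, 703 and 994, and FERMT2, the integrin activator kindlin-2, had 1001, 686 and 929. Except for CYRIB, each of these genes had sites elsewhere in all KO lists. No enrichment of such genes was tested, and the roles are background.

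Of the remaining WT-only genes of this rank, FBXL19, an F-box protein, had folds of 1932, 2481 and 2535. GOLGA5, a golgin that tethers vesicles, had folds of 1332, 1415 and 1362 at a 64-base site. PTPRE, a receptor tyrosine phosphatase, had 727, 1074 and 960, and CAPN15, a calpain protease, had 659, 871 and 803.

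Among KO-only genes the zinc finger gene ZNF280A ranked first, whose site was the first by fold in every KO list and the only site of the gene in any list. DNAJC13, an endosomal J-domain protein, followed with folds of 974, 976 and 878 at a 50-base site, and had no WT site of any kind. TLE3, a co-repressor of the Groucho family, had folds of 765, 791 and 768, with 3 sites elsewhere in the gene in each WT list. These 3 genes had nearly the same fold in the 3 lists.

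IL11, a cytokine of the IL-6 family with a known role in fibrosis, had a 408-base site on chromosome 19 from 55880137 to 55880544 with the same ends in all KO lists. Its folds were 723, 709 and 677, and it was annotated on an Ensembl isoform. The WT lists held 1 site each elsewhere in IL11 and none in the 5' UTR. SPART, a spartin protein of endosomes and lipid droplets, had folds of 425, 327 and 366. CMTR1, which methylates the first nucleotide next to the cap, had 312, 446 and 473, and 8, 9 and 10 sites over the whole gene in the KO lists against 1, 2 and 3 in WT.

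The other KO-only genes were NKAPD1 with folds of 392, 468 and 659, PILRB, an immunoglobulin-like receptor, with 368, 352 and 316, PLEKHA4, a pleckstrin homology domain protein, with 330, 627 and 315, and EPS8, an actin-capping protein, with 299, 228 and 211. EPS8 had no site of any kind in WT. NKAPD1 and PLEKHA4 had a site elsewhere in every WT list, and PILRB in WT list 1 alone.

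**Figure D4:**
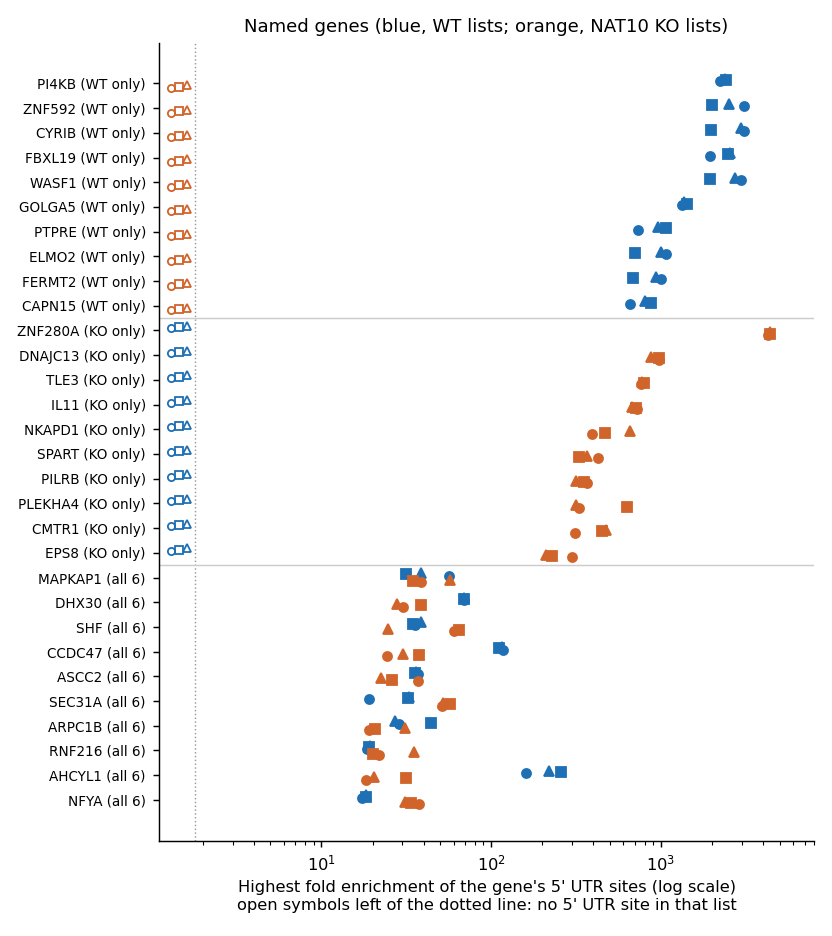
Highest fold enrichment of the 5' UTR sites of each named gene in each list on a log scale, blue for WT and orange for NAT10 KO lists; open symbols at the left mark lists with no 5' UTR site in the gene. Folds of the WT-only genes run from 659 to 3081, those of the KO-only genes from 211 to 4394, and those of the genes in all 6 lists from 17.4 to 257; the highest fold of a gene can come from different sites in different lists.

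Of the 223 genes with a 5' UTR site in all 6 lists, 173 (77.6%) held a region found in all 6, and in the others the lists held sites at different places. Apart from AHCYL1 in WT lists 2 and 3, the named genes of this class had lower folds than the named genes of both other classes. The ranking favours this, since it used the lowest fold over 6 lists here and over 3 lists in the other classes. In WT the whole classes ran the other way. Sites of regions in all 6 lists had median folds of 12.14, 12.39 and 12 in WT, against 10.965, 11.555 and 11.29 for WT-only sites. In KO these medians were 9.12, 9.18 and 10.125, against 8.6, 10.86 and 11.4 for KO-only sites. MAPKAP1, a subunit of the mTORC2 kinase complex, ranked first and its 264-base site had the same ends in all lists, on chromosome 9 from 128469250 to 128469513. The folds were 56.7, 31.7 and 38.7 in WT and 38.7, 34.8 and 57.4 in KO, and the groups overlapped. SHF, an adaptor protein, had 35.8, 34.8 and 38.7 in WT and 60.5, 64.2 and 24.6 in KO. ASCC2, of a complex that acts on stalled ribosomes, had 37.1, 35.4 and 36.0 in WT and 37.0, 26.0 and 22.5 in KO.

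DHX30, an RNA helicase, had 1 site per WT list, against 4, 5 and 4 in KO. The WT site, from 47846845 to 47846910 on chromosome 3, had folds of 69.4, 69.6 and 68.7. The KO lists 2 and 3 held a site over the same place with folds of 7.38 and 10.03, while their strongest site, with folds of 30.1, 38.6 and 27.8 over the 3 KO lists, lay from 47852147 to 47852201. A gene present in all 6 lists can thus carry different sites.

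SEC31A, a coat protein of vesicles leaving the endoplasmic reticulum, had a 367-base site with the same ends in all 6 lists, with folds of 19.1, 32.3 and 33.0 in WT and 51.0, 56.8 and 52.1 in KO. ARPC1B, of the Arp2/3 complex, had highest folds of 28.6, 44.0 and 27.2 in WT and 19.0, 20.6 and 31.2 in KO, but no single region of it was in all 6 lists. RNF216, a ubiquitin ligase, had 18.6, 19.0 and 19.3 in WT and 21.8, 20.2 and 35.3 in KO. CCDC47, a protein of the endoplasmic reticulum, had 117, 110 and 115 in WT and 24.4, 37.7 and 30.4 in KO, and AHCYL1, which binds the inositol trisphosphate receptor, had 2 such regions, the stronger with 159, 257 and 218 in WT and 18.4, 31.5 and 20.5 in KO. For CCDC47 and this region the WT values stood above all KO values, each within its own list.

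The fold of a site describes its place within a list, so the 176 regions of all 6 lists were compared by their fold percentile in each list. One of them, in TPM4, had no joined fold in KO list 1. Of the other 175, every WT percentile was above every KO percentile in 66 (37.7%, beside 33.9% of such regions over all 5 transcript parts), the reverse held in 38 (21.7%, beside 33.1%), and in 71 they overlapped. Only 27 of the 176 regions had the same start and end in all 6 lists.

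Among the regions where the genotypes stood far apart, chosen after their values were seen, was that of ERCC3, a helicase of the TFIIH complex, with folds of 398, 751 and 573 in WT and 6.50, 4.74 and 5.38 in KO at coordinates that were the same in all 6 lists. In all, 7 of the 176 regions had a fold of at least 100 in every WT list, among them those in ERCC3, ASPHD1, ARHGAP1, AHCYL1, CERS2 and CCDC47. The 2 with a fold of at least 100 in every KO list were in CBX1, a heterochromatin protein, with 217, 245 and 220, and TRAF6, a ubiquitin ligase of NF-kappaB signalling, with 138, 117 and 104. The WT folds of CBX1 were 19.51, 14.5 and 13.6, and those of TRAF6 were 14.8, 8.58 and 12.7.

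In 25 of the 2013 genes with a 5' UTR site (1.24%) a WT-only and a KO-only 5' UTR region were both present. The same count was not made for other transcript parts. CREB1, a transcription factor that responds to cyclic AMP, is the plainest of these and was picked after its values were seen. Its WT site, from 208414985 to 208415079 (208415081 in list 3) on chromosome 2, had folds of 10.7, 11.2 and 9.83. Its KO site, from 208394461 to 208394742, had folds of 39.3, 33.5 and 33.7, and the 2 sites are annotated on different Ensembl isoforms. NFYA, a subunit of the CCAAT-binding factor, likewise had 1 site per list at different places, with folds of 17.4, 18.4 and 18.4 in WT and 37.5, 33.8 and 31.2 in KO.

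NAT10 itself had a 5' UTR site in 5 of the 6 lists. In the WT lists it ran from 34127111 to 34127339 on chromosome 11, with folds of 7.96, 6.56 and 6.79. In KO lists 2 and 3 it ran from 34127113 to 34127339 with folds of 4.39 and 6.95, and KO list 1 had none. Over the whole gene the WT lists had 11, 11 and 8 NAT10 sites and the KO lists 2, 5 and 9. THUMPD1, the adaptor for transfer RNA acetylation, had no 5' UTR site in any list, 1 site elsewhere in each WT list and no site in KO.

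Besides ANKLE2 and DHX30, the genes with most 5' UTR sites over the 6 lists were PTPRA and TNS3 with 14 each, followed by AHNAK, AKT1S1, HPCAL1 and TBC1D14 with 13 each. PTPRA, a receptor tyrosine phosphatase, had 3, 3 and 2 sites in WT, with highest folds of 20.5, 16.1 and 13.5, and 2 per list in KO, with 4.87, 3.65 and 4.85, of which 3.65 belongs to another site (3.24 at the place of the others). TNS3, a focal adhesion protein, had 1, 0 and 2 sites in WT, against 2, 4 and 5 in KO. AHNAK, a very large scaffold protein, had highest folds of 17.1, 16.5 and 14.4 in WT and 89.2, 128 and 37.5 in KO. The values in KO lists 1 and 2 belong to another site, and the region held by all 6 lists had 27.6, 28.7 and 37.5 in KO. In AKT1S1, an inhibitor of the mTOR complex, no fold passed 8.16.

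Pathway genes were followed in 18 lists, each counted as members with a 5' UTR site among members with a site anywhere in any list. The number of members was not overlapping between genotypes in 7 of the 18 lists (38.9%). It was higher in every WT than every KO list in 3 (16.7%) and lower in 4 (22.2%). No list was tested, and the genes are few in most.

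Growth factor receptors and the RAS, MAPK, AKT and mTOR pathways were among the lists higher in WT. Of 39 members with any site, 11, 11 and 8 had a 5' UTR site in WT and 4, 5 and 6 in KO, whereas sites anywhere were as frequent in both (31, 31 and 30 against 31, 31 and 34). TSC1, a brake on mTOR, had a WT-only site with folds of 14.0, 13.8 and 14.7. RPTOR, the raptor subunit of mTORC1, had 9.92, 9.23 and 9.92. Of the 12 members with a 5' UTR site in some list, 3 were WT-only (25%) and 0 were KO-only. The shares over all 2013 genes with a 5' UTR site were 17.8% and 21.5%.

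The receptor FGFR4 had sites in all 6 lists, with folds of 32.8, 44.3 and 31.3 in WT and 33.2, 15.3 and 20.8 in KO. FGFR1 did too, and its region in all 6 lists had 11.9, 15.1 and 15.4 in WT and 10.1, 8.52 and 8.90 in KO. A separate FGFR1 site found in the KO lists alone had 12.2, 12.98 and 17.5. IGF1R, the receptor for insulin-like growth factor, falls outside the naming rule and was picked after its values were seen. Its folds were 665, 453 and 642 in WT, and 7.34 at an overlapping site in KO list 3, with no 5' UTR site in KO lists 1 and 2.

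Proximal tubule markers had 3, 2 and 3 members with a 5' UTR site in WT and none in KO, while 8, 8 and 9 against 8, 9 and 9 had a site anywhere. Only 3 markers had a 5' UTR site in some list, and 2 of them were WT-only, where 17.8% of all genes with a 5' UTR site were. These were GGT1, the brush border gamma-glutamyltransferase, with folds of 36.2, 37.6 and 28.7, and MME, the endopeptidase neprilysin, with 21.4, 11.9 and 12. Of the 25 markers 15 had a site somewhere, so many defining markers of the labelled cell type had none. None of the 28 markers of other kidney and blood cell types had a 5' UTR site, and 5 had a site elsewhere.

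Enzymes of RNA modification had 2 members in each WT list, NAT10 and WTAP, and 0, 1 and 1 in KO. WTAP, a subunit of the m6A methyltransferase complex, had folds of 30.2, 28.2 and 27.4 in WT alone. Fewer members of this list had a site anywhere in KO as well, 15, 15 and 16 against 20, 19 and 19.

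Glycolysis and hypoxia genes were more frequent in KO, with 5, 6 and 8 members against 3, 4 and 4, and sites anywhere followed the same order (27 in every KO list against 20, 20 and 18). PFKP, a phosphofructokinase, had a KO-only site with folds of 35.0, 28.5 and 32.3. PFKFB4, which makes the activator of phosphofructokinase, had a WT-only site with folds of 27.9, 35.3 and 32.01. ALDOA, an aldolase, was in all 6 lists with folds of 49.8, 46.4 and 56.6 in WT and 7.16, 7.79 and 8.41 in KO.

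Epithelial, mesenchymal and integrin genes had 1 member in each WT list and 2, 2 and 3 in KO. Sites anywhere went the other way, in 23, 24 and 22 members in WT and 18, 18 and 20 in KO. ITGB4, the integrin subunit of hemidesmosomes, was KO-only with folds of 6.94, 8.07 and 11.4, and the myosin light chain MYL9 was in all lists with 21.0, 20.6 and 21.0 in WT and 4.34, 6.57 and 6.44 in KO. Cytosolic ribosomal proteins had 2, 1 and 2 members in WT and 3 in each KO list, and RPL39L was KO-only with 11.6, 9.45 and 8.69. Ribosomal members with a site anywhere were also more frequent in KO, at 21, 19 and 23 against 15, 14 and 16. Solute carriers had 13, 16 and 11 in WT and 17, 18 and 21 in KO, of 170 members with any site. Carriers with a site anywhere overlapped between genotypes, at 120, 118 and 110 in WT and 98, 114 and 121 in KO.

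Of the 35 solute carriers with a 5' UTR site, 5 were WT-only (14.3%), 9 KO-only (25.7%) and 3 in all 6 lists (8.57%), near the 17.8%, 21.5% and 11.1% of all genes with a 5' UTR site. The WT-only carriers included SLC43A1, which carries large neutral amino acids, with folds of 42.8, 34.3 and 24.7, SLC26A2, a sulfate carrier, with 28.0, 23.5 and 40.01, and SLC23A2, a vitamin C carrier, with 26.2, 21.0 and 18.7. The SLC43A1 site ran from 57282254 to 57282336 on chromosome 11 in WT lists 1 and 2. In WT list 3 it was another site, from 57281974 to 57282088. The KO-only carriers included SLC38A5, an amino acid carrier, with 112, 80.4 and 83.4, and SLC7A1, which carries cationic amino acids, with highest folds of 25.5, 24.9 and 25.7. In KO list 3 the highest was at another SLC7A1 site, and the place of the others had 20.4. SLC41A1, a magnesium carrier, was in all lists, with 9.56, 9.08 and 8.75 in WT and 24.0, 30.7 and 33.0 in KO.

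**Figure D5:**
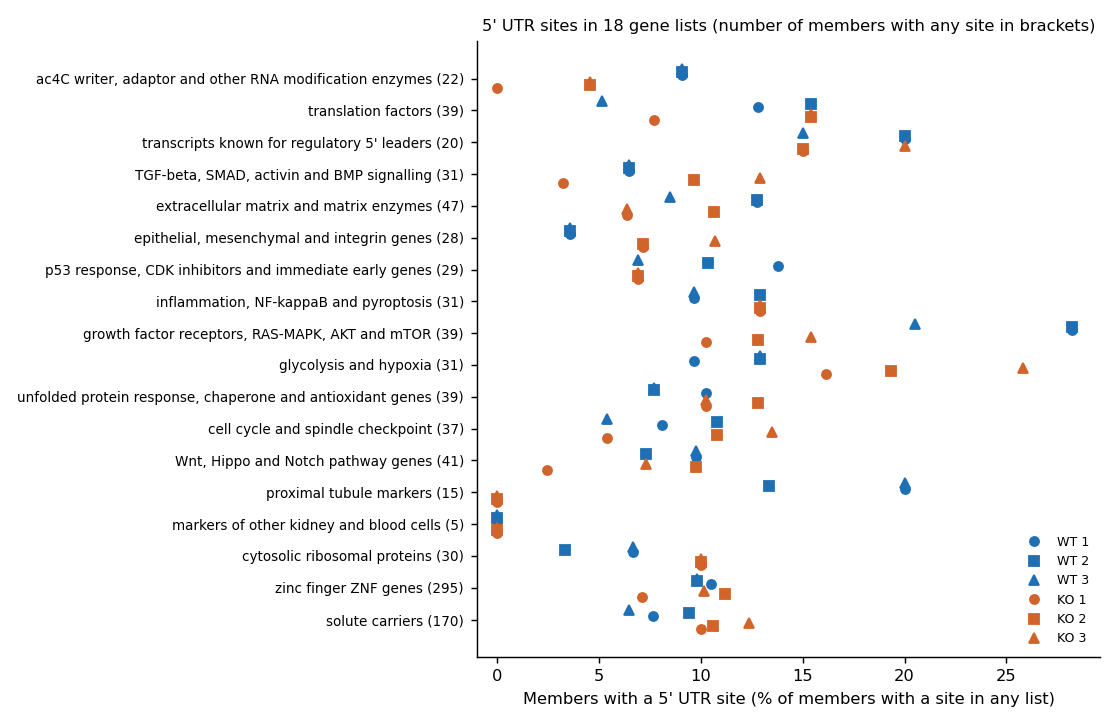
Share of each list's members with a 5' UTR site (percent of members with a site anywhere in any list, whose number stands in brackets), 1 point per list, blue for WT and orange for NAT10 KO. Growth factor, AKT and mTOR genes and proximal tubule markers have all WT points to the right of all KO points, and glycolysis genes and solute carriers the reverse.

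In the other lists the genotypes overlapped in number or were equal. Translation factors had 5, 6 and 2 members in WT and 3, 6 and 6 in KO. EIF2S1, the alpha subunit of eIF2, was WT-only with folds of 7.07, 3.19 and 5.57, and EIF2B3 (7.84, 12.4 and 18.2) and EIF5A (6.51, 5.80 and 6.44) were KO-only. The release factor ETF1 was in all lists, with 9.07, 12.6 and 11.9 in WT and 9.61, 8.01 and 9.43 in KO.

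Transcripts known for regulatory leaders, whose upstream reading frames or structures control their translation, had 4, 4 and 3 members in WT and 3, 3 and 4 in KO. The antizyme inhibitors AZIN1 and AZIN2, which act on polyamine synthesis, had sites in all 6 lists. The folds of AZIN2 were 18.9, 23.4 and 14.0 in WT and 29.0, 47.7 and 47.4 in KO, which do not overlap, while their percentiles within the lists do. The AZIN1 region of all 6 lists had 3.32, 4.54 and 3.71 in WT and 5.16, 4.50 and 6.37 in KO, and these folds overlapped. Its percentiles within the lists did not, at 11.4, 23.8 and 12.8 in WT and 28.3, 25.5 and 43.5 in KO. A separate AZIN1 site in the WT lists alone had folds of 20.2, 17.1 and 17.2. CDKN1A, the cell cycle inhibitor p21, was WT-only with folds of 7.66, 4.65 and 5.63.

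Of the genes tied to fibrosis, the TGF-beta, activin and BMP list had 2 members in each WT list and 1, 3 and 4 in KO. SMAD2, a receptor-activated transducer, was KO-only with folds of 5.10, 12.2 and 16.4. Extracellular matrix genes had 6, 6 and 4 members in WT and 3, 5 and 3 in KO. LOXL2, a collagen cross-linking oxidase, was in all lists at 12.6, 16.2 and 16.4 in WT and 5.51, 7.07 and 8.21 in KO at its shared region. SERPINH1, the collagen chaperone HSP47, was too. Its sites opening at 75273415 on chromosome 11 had 9.06, 8.80 and 10.2 in WT and 4.1, 7 and 3.96 in KO. KO list 3 held another SERPINH1 site, from 75274192 to 75274536 with a fold of 7.98, which did not overlap the WT site.

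Inflammation genes had 3, 4 and 3 members in WT and 4 in each KO list. NLRP1, an inflammasome sensor, was WT-only with folds of 35.8, 37.2 and 56.0, and NFKB1, the precursor of the NF-kappaB p50 subunit, was KO-only with 12.3, 20 and 14.1. TNFAIP3, a brake on NF-kappaB, was in all lists with 15.3, 13.8 and 10 in WT and 8.86, 17.5 and 16.4 in KO. In the p53 and immediate early list (4, 3 and 2 members in WT, 2 in each KO list), FOSB was KO-only with folds of 86.3, 90.5 and 67.6 and IER2 WT-only with 6.81, 5.37 and 4.99.

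The unfolded protein response and chaperone list had 4, 3 and 3 members in WT and 4, 5 and 4 in KO. The chaperone HSPA8 was WT-only with folds of 6.41, 8.19 and 7.63, and DNAJB9, a co-chaperone of the endoplasmic reticulum, KO-only with 8.73, 7.14 and 8.28. CANX and DNAJB1 were in all 6 lists, with no fold above 14.7. Cell cycle genes had 3, 4 and 2 members in WT and 2, 4 and 5 in KO: CDK1 was KO-only at 3.18, 2.82 and 2.51, close to the lowest fold of 2 that the lists hold, and the mitotic kinase AURKA had 2 sites in KO. The AURKA region of all 6 lists overlapped in fold, with 8.88, 6.62 and 6.72 in WT and 6.58, 5.62 and 6.98 in KO. Its other site, from 54965612 to 54965721 on chromosome 20, was in the KO lists alone with 28.0, 21.9 and 20.6.

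Wnt, Hippo and Notch genes had 4, 3 and 4 members in WT and 1, 4 and 3 in KO. LRP6, a Wnt co-receptor, was WT-only with folds of 27.2, 37.2 and 39.2, as was DVL3, a transducer of the same signal, with 15.3, 13.3 and 10.7. The Notch ligand JAG1 was KO-only with 9.58, 6.36 and 6.13. The zinc finger ZNF family, the largest list with 295 genes that had any site, had 31, 29 and 29 members in WT and 21, 33 and 30 in KO. Of the 65 with a 5' UTR site in some list, 18 were WT-only (27.7%), 14 KO-only (21.5%) and 3, ZNF410, ZNF275 and ZNF672, in all 6 lists (4.62%). The shares over all 2013 genes with a 5' UTR site were 17.8%, 21.5% and 11.1%.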

How the data were processed

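ac4C-RIP-seq of HK-2 cells gave 1 site list per pair of IP and input, 3 WT and 3 KO. Per the submitters' processing notes, HISAT2 2.0.4, cutadapt 1.9.3 and hg38 were involved, with no role stated. The authors called sites with MACS, per the file headers and peak names. Its version, the annotation and the build of the coordinates are not given in the sources used here. Although hg38 is mentioned, the site positions do not match GRCh38.p14. The score, per the file headers, is log10 of MACS's p-value multiplied by minus 10, and none was under 50. The fold enrichment is the authors' deposited ratio of IP over input, at least 2. The false discovery rate is the authors' deposited percent. No counts or depths are in the lists, so no interval on a site was possible, and folds were used only to describe and rank sites within a list.

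In KO list 1 only 1 of 13818 rows had coordinate and gene columns of the same site. They were rejoined on equal significance and length, which left 53 rows unjoined, 3 of them 5' UTR sites. On simulated data, WT lists with shuffled gene columns, 99.8% to 99.9% of rows were joined and 100% of those had the right gene. Sites at the score ceiling share 1 significance value and are told apart by length first. They made up 16.3% of KO list 1 but 6.44%, 6.63% and 6.71% of the WT lists. The check therefore held fewer such ties than KO list 1. There were 17 empty lines over the lists.

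Starts are printed counted from 1. Symbols were updated through RefSeq (GRCh38.p14). Regions are 5' UTR sites of the 6 lists merged at 1 base of overlap. Lists were compared by exact permutation, and parts within lists by sign-flip, with Benjamini-Hochberg adjustment over 4 comparisons each (Python 3.11.15, pandas 2.3.3, numpy 2.4.6). Named were NAT10 and THUMPD1; the 10 genes of highest fold in each of the 3 classes (lowest over the lists of the gene's highest fold, sites of at least 50 bases); the genes with most sites; and list members in all lists of 1 genotype only, or in all 6. All were chosen with earlier results of these data known. Alternatives were a fold of at least 4, a length of at least 50, equal list lengths, an overlap of at least 50% of the shorter site, no site elsewhere, RefSeq transcripts only (chosen after seeing the data), leaving out each list, and the replicate block. Replicate numbers correlated by 0.0344, -0.000248 and 0.0310, so they were not taken to pair lists. Some items that the naming rule or the values would have picked are not reported here.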

Additional observations from a re-analysis of the deposited data

How the results depend on the processing

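The 5' UTR sites of each list carry no depth, and 3 lists per genotype cannot give a p under 0.1. Of 163 recomputed main values 136 kept their direction, their side of the threshold and, for counts, stayed within 1.5 times, and none reversed. Among sites of at least 4-fold, the within-list gap of median fold to coding sequence was 1.07 (adjusted p = 0.0833 by exact sign-flip permutation), and the length gaps were -59.5 bases to start codon and 48 bases to coding sequence (adjusted p = 0.0625 each); the cause was not tested. With each list left out in turn these were 1.45 to 1.92, -58 to -55.8 and 48.4 to 50, all with an adjusted p of 0.0833, since 5 lists cannot go under 0.0625. On RefSeq messenger RNAs alone, which removes about the other 40% of 5' UTR sites, the WT-only and KO-only regions numbered 248 and 297 and the genes 211 and 266. Asking for no site anywhere in the gene in the other genotype left 106 and 164 genes. Among the genes named for their fold, their number of sites or a different site in each genotype, FBXL19, GOLGA5, ELMO2, FERMT2, CAPN15, ZNF280A, IL11, PILRB, SHF, SEC31A, ANKLE2 and CREB1 had no 5' UTR site on a RefSeq messenger RNA in any list. The difference in number of 5' UTR sites, KO minus WT, changed sign for AHNAK at 4-fold (0.333) and at equal list lengths (0.667), for HPCAL1 at 50 bases (-0.333), at equal list lengths and on RefSeq messenger RNAs (-0.667 each), and for TBC1D14 at 50 bases (0.333).

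With the replicate number as a block, the differences in sites, share, genes and median length kept their values and had exact permutation p of 0.5, 0.25, 0.5 and 0.25, where 0.25 is the smallest that 3 pairs allow. Same-numbered lists did not deviate together.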
